A study of Mus musculus with 8 samples.

Results

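Layer 6 corticothalamic (L6CT) neurons are the excitatory neurons of the deepest cortical layer that send their axons to the thalamus. They were taken here as the nuclei that the deposited cell table calls L6CT, joined to the count matrix by the order of the barcodes, and they made up 12197 of the 102330 nuclei. The tissue was primary visual cortex (V1), taken from mice on postnatal day 21 (P21), and its nuclei were profiled by single-nucleus RNA sequencing (snRNA-seq) in 8 libraries. All animals, controls included, carried GR fl/fl, the floxed allele of the glucocorticoid receptor gene Nr3c1. Each animal received an AAV2/5 vector at birth, in which the GfaABC1D promoter drove expression in astrocytes: GR-KO animals received Cre with EGFP, and GR-Con animals received ΔCre, the control form of Cre, with EGFP. Animals of both genotypes were reared normally (NR) or in the dark (DR). Each of the 4 groups formed by rearing and genotype held 2 animals, 1 male and 1 female by the names of the libraries. The vector was directed to astrocytes, so L6CT neurons were not the cells in which the receptor was to be removed.

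L6CT neurons feed cortical output back to the thalamus, and in V1 they contact thalamic relay cells and the inhibitory neurons of the thalamic reticular nucleus while also sending branches to layer 4 and layer 5. The class is known by the transcription factors Foxp2 and Tle4, by Syt6, a member of the synaptotagmin family, and by Ntsr1, the neurotensin receptor whose Cre lines are widely used to reach these cells. Light reaching V1 drives activity-dependent transcription in its neurons, in which immediate early transcription factors such as Fos and Egr1 are followed by effectors that act on synapses and excitability. Rearing in the dark removes patterned vision from this system, and the glucocorticoid receptor is a hormone-bound transcription factor.

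The deposited name fitted the markers of the class. Foxp2 was highest in L6CT among the 20 deposited cell types, chandelier cells left out, at 1237 ± 97.7 CPM (the UMIs of a gene scaled to all UMIs of the sum, SD, n = 8 libraries) against 348 CPM in L6b, the next type, and Syt6 was at 141 ± 67.7 CPM against 46.8 CPM in Vip interneurons. Tle4 was highest in L5NP and L6b neurons, with L6CT next, and Ntsr1 was higher in L6b (22.3 CPM) than in L6CT (13.1 CPM). A library held 1059 to 1790 L6CT nuclei, 20458973 to 36358101 unique molecular identifiers (UMIs) in them and a median of 15198 to 31282 UMIs per nucleus. All 3 endothelial and all 4 vascular leptomeningeal markers were under 1 CPM in every library. The sum of 5 oligodendrocyte markers ranged from 52.2 to 72.7 CPM in GR-Con and from 71.6 to 115.6 CPM in GR-KO libraries. Mbp, 1 of these 5, alone ranged from 26.1 to 40.25 CPM in GR-Con and from 30.3 to 71.1 CPM in GR-KO libraries. The sum of 5 astrocyte markers ranged from 916 to 1054 CPM in NR and from 689 to 907 CPM in DR libraries. The last sum was mostly Slc1a2, which was at 669 CPM or more in every library, whereas Aqp4 was at 2.14 CPM or less. The share of nuclei called L6CT was 12.2% ± 0.794 in NR and 11.6% ± 0.894 in DR libraries (SD, n = 4 each, two-sided exact permutation test, p = 0.4286), and 12.2% ± 0.851 in GR-Con against 11.6% ± 0.817 in GR-KO libraries (exact permutation p = 0.4). Between 25 and 66 cell barcodes were shared by any 2 libraries, of which 0 to 5 were L6CT in both.

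Rearing in the dark was compared with normal rearing first, over all 8 libraries with genotype as a covariate. The UMIs of all L6CT nuclei of a library were summed and tested with the likelihood ratio test of edgeR, two-sided, with Benjamini-Hochberg adjustment over all genes tested and a threshold of 0.05, and a gene past it is said to be called. Of 16730 genes tested, 2085 (12.5%) were called, 1085 higher (6.49%) and 1000 lower (5.98%) in DR. In such sums, fewer nuclei with a transcript and fewer copies per nucleus cannot be told apart. The quasi-likelihood F-test of edgeR, which is stricter with few animals, called 1668 genes (9.97%), of which 912 were higher (5.45%) and 756 lower (4.52%). The count fell to 1113 without the DR GR-KO male and to 1171 without the NR GR-Con male. Library values below are CPM of the L6CT sum in the order GR-Con male, GR-Con female, GR-KO male and GR-KO female, and fold changes are log2 differences with their standard error (SE), here of DR from NR.

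The genes that rose most included enzymes, surface receptors and guidance molecules. Inpp4b, which encodes a phosphoinositide phosphatase, was at 16.9, 12.8, 25.0 and 12.6 CPM in NR and at 66.0, 149, 62.3 and 59.7 CPM in DR libraries (2.28, SE 0.35, adjusted p = 1.8e-08). The DR GR-Con female was the highest of the 4 DR libraries, and without it the log2 fold change of Inpp4b was 1.91. Sema5b, a transmembrane semaphorin of axon guidance, was at 17.9, 22.1, 43.7 and 30.0 CPM in NR and at 110.0, 62.8, 149.9 and 96.9 CPM in DR libraries (1.94, SE 0.24, adjusted p = 3.1e-13). Kit, the receptor of stem cell factor, was at 14.1, 14.8, 21.5 and 13.4 CPM in NR and at 38.6, 39.6, 57.2 and 33.1 CPM in DR libraries (1.41, SE 0.19, adjusted p = 7.6e-11). For these 3 genes the lowest DR library stood above the highest NR library, which the rule for genes named by size required and which held for 8.36% of all genes, while 9.11% stood apart in the other direction. The same held for the actin regulator Eps8, which went from 5.35, 5.79, 9.72 and 11.4 to 27.2, 15.5, 35.2 and 25.5 CPM (1.74, SE 0.21, adjusted p = 2.1e-13), and for the procollagen protease Adamts2, which went from 9.53, 14.6, 9.52 and 14.0 to 18.5, 66.7, 57.5 and 55.6 CPM (2.04, SE 0.36, adjusted p = 1.4e-06). Also named by size were the sialyltransferase St6gal1 (1.66, SE 0.39, adjusted p = 0.00073), the secretory pathway protein Fam20a (1.46, SE 0.22, adjusted p = 1.2e-08), the receptor phosphatase Ptpru (1.42, SE 0.22, adjusted p = 1.4e-08), the transmembrane collagen Col23a1 (1.37, SE 0.26, adjusted p = 1.5e-05), the AMPA receptor auxiliary subunit Gsg1l (1.34, SE 0.32, adjusted p = 0.00086) and Nkain3, which encodes a partner of the sodium pump (1.32, SE 0.32, adjusted p = 0.0011). In the plot of 12 genes by library the DR symbols of each higher gene lie above its NR symbols.

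**Figure D1:**
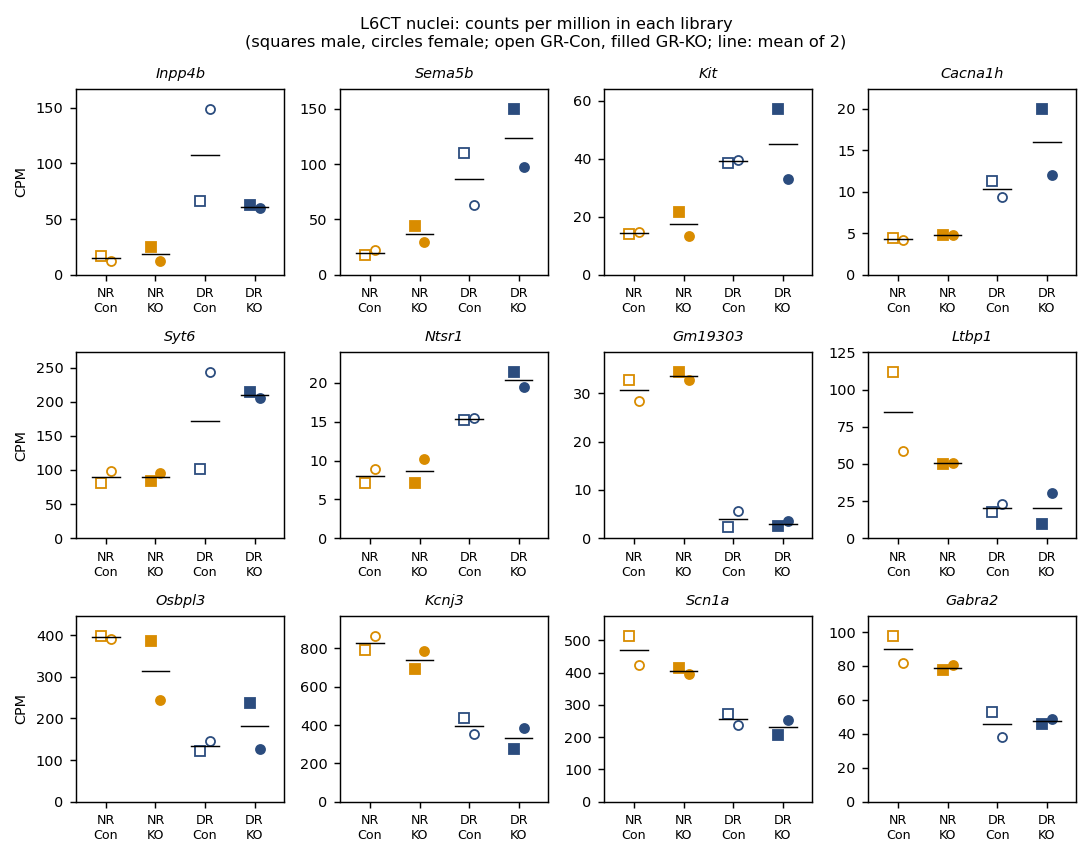
CPM of 12 genes in the L6CT sums of the 8 libraries, NR against DR, with squares for males, circles for females, open symbols for GR-Con, filled symbols for GR-KO and a line at the mean of each group of 2. Inpp4b, Sema5b, Kit, Cacna1h, Syt6 and Ntsr1 were higher in every DR library than in any NR library, and Gm19303, Ltbp1, Osbpl3, Kcnj3, Scn1a and Gabra2 were lower. Such separation was required of genes named by size and held for 8.36% of all genes upward and 9.11% downward.

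The gene that fell most was Gm19303, an intergenic long noncoding RNA on chromosome 15 (51231640 to 51395610, GRCm38). It was at 32.7, 28.4, 34.3 and 32.7 CPM in NR and at 2.27, 5.58, 2.44 and 3.53 CPM in DR libraries, a log2 fold change of -3.20 (SE 0.27, adjusted p = 3e-29). Its 8 values fell into separate ranges with no library between them. The rule for genes named by size required such separation of each gene here, and it held in that direction for 9.11% of all genes. A second intergenic noncoding RNA, Gm32647 on chromosome 7 (94042691 to 94709171), went from 59.0, 23.0, 27.1 and 44.3 to 4.64, 7.32, 3.47 and 9.44 CPM (-2.61, SE 0.40, adjusted p = 1.9e-08). Ltbp1, which encodes a binding protein of latent TGF-beta, was at 112, 58.8, 49.7 and 50.8 CPM in NR and 17.4, 23.3, 9.82 and 30.4 CPM in DR libraries (-1.68, SE 0.37, adjusted p = 0.00024). Osbpl3, an oxysterol-binding protein, was at 399, 390.3, 386 and 244 CPM in NR and 121, 147, 237 and 126 CPM in DR libraries (-1.17, SE 0.25, adjusted p = 0.00013). The NR GR-Con male was the highest library for both genes, and no DR library reached an NR library. Further genes that fell were the matrix protein Abi3bp (-1.49, SE 0.17, adjusted p = 1.2e-15), the integrin subunit Itgav (-1.34, SE 0.22, adjusted p = 1.1e-07) and the secreted lysophospholipase Enpp2 (-1.21, SE 0.18, adjusted p = 1.4e-08). The remaining genes named by size were Strip2 (-1.62, SE 0.25, adjusted p = 1.2e-08), Zfp804b (-1.44, SE 0.38, adjusted p = 0.0035), Ptchd4 (-1.26, SE 0.32, adjusted p = 0.0016), Rad51ap2 (-1.19, SE 0.12, adjusted p = 1.4e-19) and 4930473D10Rik, annotated as antisense (-1.36, SE 0.21, adjusted p = 2e-08). Whether any reads of 4930473D10Rik came from a gene on the other strand was not tested.

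Genes by which the class is known moved in both directions. Of 14 identity genes and transcription factors tested, 4 rose (Syt6, Ntsr1, Zfpm2 and Bcl11b) and 1 fell (Tle4), beside 6.49% of all genes up and 5.98% down. In the fits without the NR GR-KO male, without the GR-Con female of either rearing or without a DR GR-KO animal, 2 rose. Their median log2 fold change was 0.03 against -0.007 over all genes. Foxp2 was not called (0.14, SE 0.10, adjusted p = 0.38), with 1140.0, 1199, 1129 and 1248 CPM in NR and 1237, 1446, 1264 and 1233 CPM in DR libraries. Syt6 was at 81.5, 98.9, 84.1 and 96.0 CPM in NR and at 102, 243, 214 and 206 CPM in DR libraries (1.08, SE 0.23, adjusted p = 0.00019), and the DR GR-Con male lay just above the NR values while the other 3 DR libraries were above 200 CPM. Ntsr1 was at 7.10, 8.85, 7.15 and 10.2 CPM in NR and at 15.2, 15.5, 21.4 and 19.4 CPM in DR libraries (1.10, SE 0.15, adjusted p = 4.9e-11), with no overlap. Of all genes, 8.36% stood apart in that direction. Tle4, a corepressor, was at 795, 848, 703 and 876 CPM in NR and at 609, 572, 506 and 510.0 CPM in DR libraries (-0.55, SE 0.11, adjusted p = 5.3e-05).

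The same genes were then counted as the share of L6CT nuclei with at least 1 UMI after each nucleus was thinned to 5000 UMIs. Foxp2 was detected in 98.8 to 99.3% of nuclei in NR and 98.6 to 99.4% in DR libraries, and in 6.53 to 13.6% of oligodendrocytes, which should lack it. Syt6 was detected in 30.9 to 36.6% of nuclei in NR and 36.9 to 64.5% in DR libraries (oligodendrocytes at most 0.984%, two-sided exact permutation test, p = 0.02857), and Ntsr1 in 3.29 to 4.73% and 6.89 to 9.36% (oligodendrocytes at most 0.379%, exact permutation p = 0.02857). Tle4 went the other way, from 93.8 to 97.2% in NR to 84.6 to 92.1% in DR libraries (oligodendrocytes 30.6 to 36.3%, exact permutation p = 0.02857). The smallest p that 4 against 4 libraries allow is 0.02857. Syt6, Ntsr1 and Tle4 had already been called in these libraries with no overlap in CPM, so these p-values are no separate evidence. For the share of Foxp2 the exact permutation p was 0.8857. Without thinning the lowest and highest library held Syt6 in 63.7 and 93.4% and Ntsr1 in 10.1 and 23.4% of L6CT nuclei, and median depth was 8175 UMIs in the oligodendrocytes and precursors of the GR-KO libraries against 18864 UMIs in L6CT nuclei. Of 7 genes that divide L6CT neurons into subtypes, 2 rose (6.49% among all genes) and 2 fell (5.98%), with a median of -0.40. Sla (0.89, SE 0.28, adjusted p = 0.021) and Gpr139 (2.77, SE 0.95, adjusted p = 0.033) rose while Wls (-1.24, SE 0.28, adjusted p = 0.00041) and Brinp3 (-1.02, SE 0.25, adjusted p = 0.001) fell. Gpr139 was at 2.77 CPM or less in every library, and the quasi-likelihood test called neither of the 2 that rose. By the exact permutation test of the thinned shares, p was 0.02857 for Wls, 0.05714 for Brinp3 and 0.08571 for both Sla and Gpr139. Each fit without the NR GR-Con male, a female of NR, the DR GR-Con female or the DR GR-KO male called 0 of the subtype genes higher.

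Among genes regulated by neuronal activity, effectors were called in the lower direction alone. In some immediate early transcription factors, such as Fos and Junb but not Jun, 1 library stood far above the others. Of 21 effectors tested, 8 fell and 0 rose, beside 5.98% of all genes lower and 6.49% higher, with a median log2 fold change of -0.46. Scg2, the secretogranin precursor of secretory granules, was at 9.39, 7.59, 9.41 and 9.36 CPM in NR and at 2.30, 5.39, 5.13 and 3.13 CPM in DR libraries (-1.16, SE 0.25, adjusted p = 0.00013). Nptx2, the pentraxin that gathers AMPA receptors at synapses, was at 4.15, 4.06, 4.90 and 4.88 CPM in NR and at 2.40, 2.72, 2.20 and 2.93 CPM in DR libraries (-0.78, SE 0.15, adjusted p = 1.6e-05). Rgs4, a regulator of G protein signalling, was at 20.1, 18.0, 21.7 and 18.6 CPM in NR and at 13.4, 13.7, 13.0 and 9.88 CPM in DR libraries (-0.65, SE 0.12, adjusted p = 1.5e-05). None of these 3 genes had a DR library that reached an NR library, which held in that direction for 9.11% of all genes. The MAP kinase phosphatases Dusp4 (-1.23, SE 0.34, adjusted p = 0.0054) and Dusp6 (-1.02, SE 0.28, adjusted p = 0.0054), the neuritin gene Nrn1 (-0.49, SE 0.13, adjusted p = 0.0051), the neuropeptide precursor Vgf (-0.78, SE 0.28, adjusted p = 0.042) and the pseudokinase Trib1 (-0.76, SE 0.28, adjusted p = 0.05) also fell. Of the 8, 5 were called by the quasi-likelihood test. The count of lower effectors was 4 without the DR GR-KO male and 5 without the NR GR-Con male, and 10 without the NR GR-KO female.

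Of 14 immediate early transcription factors tested, 0 rose and 1 fell, near the 5.98% of all genes that fell, with a median of -0.53. Jun was at 4.97, 2.41, 4.73 and 3.03 CPM in NR and at 1.80, 2.78, 1.91 and 1.32 CPM in DR libraries (-0.96, SE 0.30, adjusted p = 0.015), and it lost its call without the NR GR-KO male (adjusted p = 0.075). No gene of the list was called without the NR GR-Con male or without either DR GR-KO animal, and 5 fell without the NR GR-KO female. The NR GR-KO male held Fos at 16.4 CPM against 0.529 to 2.81 CPM in the other 7 libraries, Junb at 100.1 CPM, Egr1 at 62.4 CPM and Npas4 at 43.6 CPM. The 3 other NR libraries held Junb at 15.0, 6.28 and 6.87 CPM. Fos had a log2 fold change of -1.48 with all libraries (adjusted p = 0.11) and of -0.32 without that male. Junb, Egr1 and Npas4 had -0.83, -1.04 and -0.995 with all libraries and 0.45, -0.37 and -0.30 without the NR GR-KO male. The median of -0.53 for the list includes that library. Fosl2, Egr1 and Nr4a1 were not called. The study named them from another experiment, with a different assay, other mice and several ages, as genes changed in multiple cell types. Mice were collected under red light in the same hours of the day. The plot of 8 activity genes shows the 1 animal apart in Fos, Junb, Egr1 and Npas4 but not in Scg2 or Nptx2.

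**Figure D2:**
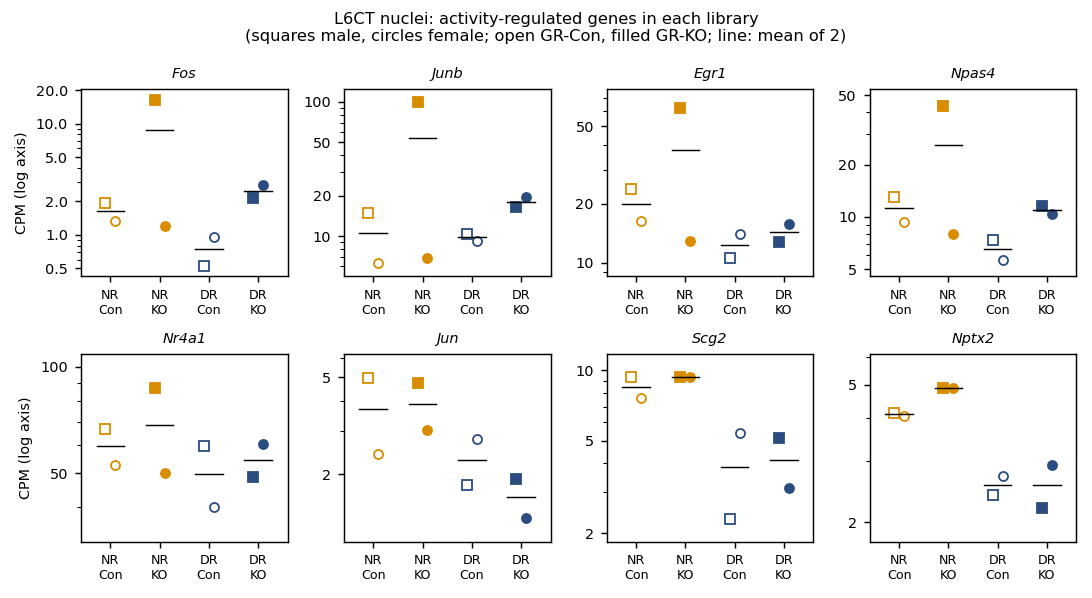
CPM on a log axis of 8 activity-regulated genes in the L6CT sums of the 8 libraries, with the same symbols (squares male, circles female, open GR-Con, filled GR-KO, line at the mean of 2). The NR GR-KO male holds the highest Fos (16.4 CPM), Junb (100.1 CPM), Egr1 and Npas4, while Scg2 and Nptx2 are lower in every DR library than in any NR library, as are 9.11% of all genes.

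Scg2 carries in its promoter a cyclic AMP response element (CRE), the full palindrome bound by the activity-dependent factor CREB, and among the effectors so do Pcsk1 and Plk2, which were not called. The 250 bases before the RefSeq start of each gene are shown because the data place these 3 promoters on both sides of the call, in GRCm38.p6 on the strand of the gene, with the CRE in capitals. They lie at chr1:79440027-79440276 on the minus strand, chr13:75089607-75089856 on the plus strand and chr13:110394794-110395043 on the plus strand, and their CREs begin 68, 78 and 62 bases before the start.
Scg2: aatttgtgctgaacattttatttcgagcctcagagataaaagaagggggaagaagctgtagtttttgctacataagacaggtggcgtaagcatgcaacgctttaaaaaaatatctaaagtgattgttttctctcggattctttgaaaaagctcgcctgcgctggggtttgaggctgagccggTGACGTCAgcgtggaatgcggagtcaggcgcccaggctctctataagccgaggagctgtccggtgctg
Pcsk1: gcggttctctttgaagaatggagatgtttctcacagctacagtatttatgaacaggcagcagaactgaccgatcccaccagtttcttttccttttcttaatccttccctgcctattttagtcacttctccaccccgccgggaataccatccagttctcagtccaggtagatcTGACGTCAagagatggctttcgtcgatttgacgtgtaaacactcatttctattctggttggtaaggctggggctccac
Plk2: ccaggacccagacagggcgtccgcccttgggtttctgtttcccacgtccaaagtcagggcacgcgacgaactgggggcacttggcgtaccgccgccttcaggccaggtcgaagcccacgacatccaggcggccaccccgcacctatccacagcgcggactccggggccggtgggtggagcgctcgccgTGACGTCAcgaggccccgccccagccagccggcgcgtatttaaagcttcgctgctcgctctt

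The 8 letters TGACGTCA were searched on both strands in the 250 bases before each start, and none of the 3 motifs searched contains another. It was in the promoters of 341 of the 12032 tested genes that had one (2.83%), of 26 of 707 genes lower in DR (3.68%) and of 18 of 797 genes higher in DR (2.26%). The letters TGANTCA of the AP-1 site were in 5.53% of promoters of all genes, 6.22% of the lower and 7.03% of the higher genes. The E-box letters CACGTG were in 9.37%, 8.35% and 7.78%. A match describes the letters in the window and is not a bound site.

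Most receptor genes for the main fast transmitters were not called. Of 25 glutamate receptor genes tested, 7 rose and 2 fell, and of 15 genes for GABA receptors and their anchor, 0 rose and 5 fell, beside 6.49% of all genes higher and 5.98% lower. The median was 0.11 for the glutamate and -0.04 for the GABA receptor list, and the lists were not tested against each other. Grin2d, an NMDA receptor subunit, was at 4.01, 4.90, 4.42 and 4.00 CPM in NR and at 10.4, 8.91, 17.4 and 8.48 CPM in DR libraries (1.38, SE 0.23, adjusted p = 4.5e-07). The AMPA receptor subunits were split, since Gria1 rose from 822, 933, 865 and 909 to 1050.0, 1266, 1367 and 1170.0 CPM (0.46, SE 0.11, adjusted p = 0.00045). Gria2, whose subunit limits the calcium permeability of AMPA receptors, was at 1938, 2043, 1834 and 2074 CPM in NR and at 1707, 1358, 1360.0 and 1460.0 CPM in DR libraries (-0.41, SE 0.12, adjusted p = 0.0096). In both subunits the DR libraries did not overlap the NR libraries, as for 8.36% of all genes upward and 9.11% downward. The kainate receptor genes Grik3 (0.59, SE 0.16, adjusted p = 0.0029) and Grik5 (0.39, SE 0.12, adjusted p = 0.015) and the delta receptor Grid1 (0.70, SE 0.13, adjusted p = 2.9e-06) rose, and the kainate auxiliary subunit Neto1 fell (-0.32, SE 0.10, adjusted p = 0.022).

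The GABA receptor genes that fell encode subunits of the GABA-A channel. Gabra2, an alpha subunit, was at 97.8, 81.6, 77.5 and 80.5 CPM in NR and at 53.1, 38.2, 46.0 and 49.0 CPM in DR libraries (-0.84, SE 0.14, adjusted p = 3.7e-07). It did not overlap between rearing conditions, and 9.11% of all genes were likewise lower in every DR library. Gabrd, whose delta subunit is found outside synapses, fell too (-0.71, SE 0.21, adjusted p = 0.0091), as did the alpha subunit Gabra4 (-0.65, SE 0.23, adjusted p = 0.043), in which 1 DR library overlapped the NR range. By quasi-likelihood 2 of the 5 genes were lower and 1 gene of the list was higher. Leaving out the NR GR-Con female left 2 GABA receptor genes lower, and leaving out the NR GR-KO female, the DR GR-Con female or either DR GR-KO animal left 3, while the glutamate receptor genes that rose numbered 5 to 8 in such fits and those that fell 0 without the NR GR-KO female or the DR GR-KO male.

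Genes of voltage-gated and background channels were called in both directions. Of 24 sodium, calcium and HCN channel genes tested, 6 rose and 1 fell, beside 6.49% higher and 5.98% lower among all genes, and the median was 0.004. The genes with the largest increases were those of the low-voltage-activated T-type calcium channels, which support burst firing. Cacna1h was at 4.46, 4.14, 4.76 and 4.75 CPM in NR and at 11.2, 9.35, 20.0 and 12.01 CPM in DR libraries (1.51, SE 0.19, adjusted p = 1.8e-12), and Cacna1g was at 11.5, 15.7, 9.60 and 14.4 and 19.8, 32.0, 38.2 and 31.6 CPM (1.24, SE 0.22, adjusted p = 2.3e-06). Both were higher in every DR library than in any NR library, as were 8.36% of all genes. The high-voltage-activated channel genes rose by less, namely Cacna1b (0.51, SE 0.10, adjusted p = 7.1e-05), Cacna1c (0.34, SE 0.10, adjusted p = 0.009) and Cacna1e (0.30, SE 0.10, adjusted p = 0.03), and the sodium channel beta subunit Scn3b rose as well (0.68, SE 0.19, adjusted p = 0.0072). Scn1a, a sodium channel alpha subunit, was at 514, 423, 414 and 395 CPM in NR and at 271, 239, 206 and 254 CPM in DR libraries (-0.83, SE 0.13, adjusted p = 9.9e-09).

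Of 34 potassium channel genes, 7 rose (6.49% among all genes) and 4 fell (5.98%), with a median of 0.21. Kcnj3, a subunit of the inward rectifier opened by G proteins, was at 789, 866, 694 and 788 CPM in NR and at 438, 353, 276 and 386 CPM in DR libraries (-1.10, SE 0.15, adjusted p = 1.1e-10), while Kcnj6, another subunit of that channel, rose (0.48, SE 0.12, adjusted p = 0.0016). Kcnn3, a small-conductance calcium-activated channel, went from 8.64, 14.9, 15.9 and 13.5 to 33.5, 39.8, 46.1 and 22.4 CPM (1.43, SE 0.25, adjusted p = 8.5e-07), and its relative Kcnn1 rose by less (0.54, SE 0.17, adjusted p = 0.019). Kcnq3, a gene of the M-current, was at 682, 721, 676 and 734 CPM in NR and at 892, 1221, 959.8 and 894 CPM in DR libraries (0.50, SE 0.12, adjusted p = 0.00063). Among the fast delayed rectifiers, Kcnc1 rose (0.38, SE 0.11, adjusted p = 0.0077) and Kcnc2 fell (-0.80, SE 0.22, adjusted p = 0.0046). The background channel Kcnk2 (-0.62, SE 0.17, adjusted p = 0.005) and the A-type channel Kcnd2 (-0.31, SE 0.11, adjusted p = 0.038) fell. Without the DR GR-KO female 3 potassium channel genes rose and without the DR GR-KO male 4 rose and 2 fell, and the sodium, calcium and HCN channel genes that rose numbered 4 to 8 when a library was left out.

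**Figure D3:**
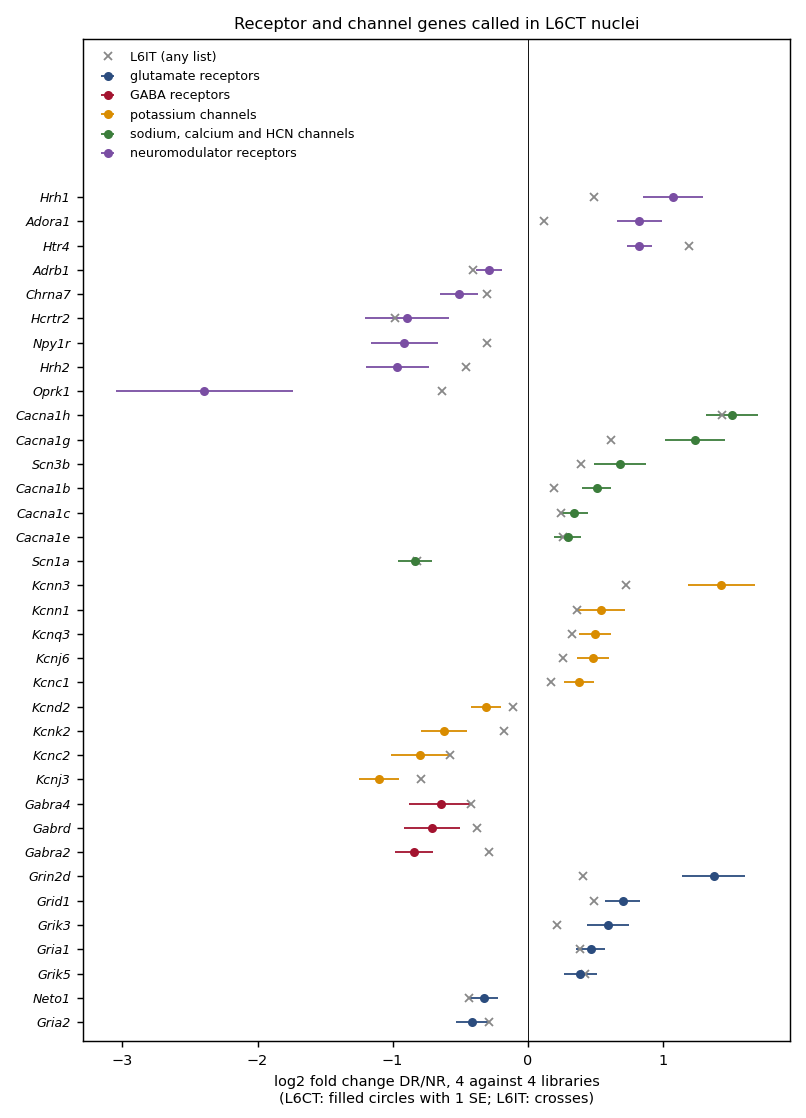
Log2 fold change of DR against NR in L6CT sums (points, bars of 1 SE) for 35 of the 41 called genes of the glutamate, GABA, neuromodulator and ion channel lists, with the value in layer 6 intratelencephalic (L6IT) neurons as crosses. Genes right of the line at 0 were higher in DR, with Cacna1h (1.51), Kcnn3 (1.43) and Grin2d (1.38) farthest to the right in L6CT.

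Receptors of neuromodulators included 3 that rose and 6 that fell of 29 tested, where 6.49% of all genes rose and 5.98% fell, and their median was 0.06. Htr4, a serotonin receptor, was at 53.9, 59.8, 65.7 and 62.2 CPM in NR and at 95.3, 93.0, 124 and 115 CPM in DR libraries (0.83, SE 0.09, adjusted p = 1.2e-15). The adenosine receptor Adora1 (0.83, SE 0.17, adjusted p = 6.1e-05) and the histamine receptor Hrh1 (1.08, SE 0.22, adjusted p = 7.9e-05) rose, and the DR GR-KO libraries were the highest for both. Among those that fell were the histamine receptor Hrh2, from 8.33, 9.81, 5.41 and 9.24 to 3.39, 4.26, 3.67 and 5.302 CPM (-0.96, SE 0.23, adjusted p = 0.00097), the nicotinic subunit Chrna7 (-0.51, SE 0.14, adjusted p = 0.0047), the orexin receptor Hcrtr2 (-0.89, SE 0.31, adjusted p = 0.038), the neuropeptide Y receptor Npy1r (-0.92, SE 0.25, adjusted p = 0.0042) and the adrenergic receptor Adrb1 (-0.29, SE 0.10, adjusted p = 0.026). Without the NR GR-Con male 3 genes of this list fell, and without the DR GR-Con male 5 rose. Oprk1 was also called lower, but it was under 1 CPM in all 8 libraries.

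Genes of axon guidance and growth rose more often than they fell, 9 against 2 of 43 tested, beside 6.49% higher and 5.98% lower among all genes, but the median of the list was 0.02 and 19 of the 43 lay below 0. By quasi-likelihood 8 rose and 2 fell, and when a library was left out 7 to 10 rose, while 1 fell without the NR GR-Con male or the DR GR-KO male and 4 fell without the NR GR-KO male or the DR GR-KO female. Slit1, a secreted ligand of Robo receptors, was at 90.4, 93.1, 132 and 94.9 CPM in NR and at 156, 189, 237 and 204 CPM in DR libraries (0.94, SE 0.12, adjusted p = 1.9e-11). The semaphorin co-receptor gene Plxna1 was at 10.2, 11.9, 13.2 and 10.7 CPM in NR and at 14.9, 23.6, 29.0 and 25.4 CPM in DR libraries (1.00, SE 0.17, adjusted p = 3.4e-07). Both were higher in each DR library, as was Sema5b and as were 8.36% of all genes. The secreted guidance cue Ntn1 (0.86, SE 0.18, adjusted p = 0.00014), its receptor Unc5a (0.59, SE 0.16, adjusted p = 0.0043), the semaphorin Sema4d (0.59, SE 0.12, adjusted p = 6e-05), the semaphorin receptor Nrp2 (1.59, SE 0.47, adjusted p = 0.0094) and the ephrin receptor Ephb2 (0.66, SE 0.19, adjusted p = 0.0067) rose. The repellent semaphorin Sema3a was at 189.7, 177, 183 and 174 CPM in NR and at 135, 79.7, 69.2 and 114 CPM in DR libraries (-0.85, SE 0.21, adjusted p = 0.0018), and the microtubule protein Stmn4 also fell (-0.43, SE 0.13, adjusted p = 0.011). Gap43, a growth cone protein, was at 98.2, 82.5, 127 and 84.2 CPM in NR and at 177, 126, 151 and 149.6 CPM in DR libraries (0.64, SE 0.17, adjusted p = 0.0038), and 1 DR library lay below the NR GR-KO male. Gap43, Epha3 and Robo1 were picked by the study from these libraries and are not independent evidence, and Epha3 (-0.07, SE 0.13, adjusted p = 0.81) and Robo1 (0.26, SE 0.35, adjusted p = 0.7) were not called. Robo1 ranged from 402 CPM in the DR GR-Con female to 1441 CPM in the DR GR-Con male.

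Of 47 adhesion and synapse organizer genes, 6 rose (6.49% among all genes) and 4 fell (5.98%), and 2 fell without either NR female or without the DR GR-KO male. Cntnap4, a neurexin-like protein, was at 81.6, 104, 161 and 104 CPM in NR and at 306, 225, 344 and 162 CPM in DR libraries (1.23, SE 0.27, adjusted p = 0.00019). Pcdh11x, a protocadherin, was at 385, 398, 341 and 390.2 CPM in NR and at 271, 149.9, 197 and 250.9 CPM in DR libraries (-0.79, SE 0.20, adjusted p = 0.0021). Cadherins were split, with Cdh13 higher (0.80, SE 0.20, adjusted p = 0.0018) and Cdh20 (-1.21, SE 0.24, adjusted p = 2.1e-05) and Cdh9 (-1.10, SE 0.36, adjusted p = 0.025) lower. The presynaptic organizer Nrxn2 rose (0.54, SE 0.11, adjusted p = 5.4e-05) and the postsynaptic Lrrtm3 fell (-0.31, SE 0.11, adjusted p = 0.034). Of 36 genes of synaptic vesicle release, 7 rose (6.49% among all genes) and 2 fell (5.98%). The vesicle protein Sv2c went from 4.25, 4.90, 3.66 and 5.63 to 7.16, 9.90, 12.2 and 13.9 CPM (1.20, SE 0.20, adjusted p = 4.3e-07), and the synapsins Syn2 (0.63, SE 0.10, adjusted p = 3.2e-08) and Syn3 (0.78, SE 0.27, adjusted p = 0.034) rose, while Syt12 (-0.74, SE 0.13, adjusted p = 8.2e-07) and Syt10 (-1.11, SE 0.26, adjusted p = 0.00055) fell. The quasi-likelihood test called 3 genes of this list higher, and the likelihood ratio test called 2 higher without the NR GR-Con female and 3 without the NR GR-Con male or the NR GR-KO female.

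Genes that glucocorticoids induce in many tissues were mostly not called, with 0 higher and 2 lower of 12 tested, where 5.98% of all genes were lower. Sgk1, a kinase, was at 185, 175, 162 and 163 CPM in NR and at 150.1, 140.2, 127 and 135 CPM in DR libraries (-0.30, SE 0.09, adjusted p = 0.011), and the metallothionein Mt1 fell too (-0.67, SE 0.21, adjusted p = 0.019), at 5.61 CPM or less. Neither was called without the NR GR-Con male or the DR GR-KO male, and 1 gene of the list fell when any other library except an NR female was left out. Nr3c1 itself was at 228, 229.8, 244 and 229.9 CPM in NR and at 237, 175, 247 and 252 CPM in DR libraries (-0.03, SE 0.13, adjusted p = 0.93). The 3′ counts of nuclear RNA do not show the deletion of its floxed exon. Among 18 clock genes 2 rose and 1 fell, where 6.49% of all genes rose and 5.98% fell, and the median of the list was 0.01. Clock (0.28, SE 0.08, adjusted p = 0.014) and Rora (0.46, SE 0.12, adjusted p = 0.0028) rose and Ciart, a repressor of the clock, fell from 7.51, 9.58, 10.8 and 12.4 to 5.16, 3.33, 4.99 and 4.70 CPM (-1.12, SE 0.18, adjusted p = 4.7e-08). In fits that left out 1 library, 1 gene of the list rose without the NR GR-Con male, either NR female or either DR GR-KO animal, and 2 fell without the NR GR-Con male or either DR GR-Con animal.

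The dark comparison was repeated in GR-Con and in GR-KO animals, which share no library. In GR-Con L6CT sums 484 of 16162 genes (2.99%) were called, with 276 higher (1.71%) and 208 lower (1.29%), and in GR-KO sums 1112 of 16023 (6.94%), with 592 higher (3.69%) and 520 lower (3.25%). With 2 animals against 2, the quasi-likelihood test called 0 genes in GR-Con, where 2128 had an unadjusted p under 0.05 and DESeq2 called 372, and it called 83 (0.518%) in GR-KO. Of the 470 GR-Con calls also tested in GR-KO animals, 442 (94.0%) had the same sign, against 71.6% of all 15779 genes tested in both. A total of 225 genes were called in both with the same direction, which is 46.5% of the GR-Con calls and 20.2% of the GR-KO calls, and 2 were called in opposite directions. Inpp4b had a log2 fold change of 2.85 in GR-Con (SE 0.42, adjusted p = 1.2e-08) and of 1.71 in GR-KO (SE 0.33, adjusted p = 2.9e-05). Gm19303 had -2.97 (SE 0.42) and -3.45 (SE 0.22), Cacna1h 1.26 (SE 0.23) and 1.76 (SE 0.27), and Kcnj3 -1.06 (SE 0.21) and -1.14 (SE 0.23), all called in both. The effectors Scg2, Nptx2 and Rgs4 were called in GR-KO, while in GR-Con their adjusted p was 0.12, 0.11 and 0.086 with log2 fold changes of -1.15, -0.68 and -0.50. Of all 21 effectors, 3 were lower in GR-Con (1.29% among all genes) and 5 in GR-KO (3.25%), and 0 were higher in either. The medians of the list were -0.36 and -0.40, and the quasi-likelihood test called 0 of the list in each.

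The count of GR-Con calls ranged from 83 without the NR GR-Con male to 1711 without the DR GR-Con male, and was 122 and 927 without the NR and the DR GR-Con female. In GR-KO it ranged from 186 without the DR GR-KO male to 1870 without the NR GR-KO male, and was 452 without the DR GR-KO female. These counts rest on the spread between 2 animals and do not measure the size of the response.

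**Figure D4:**
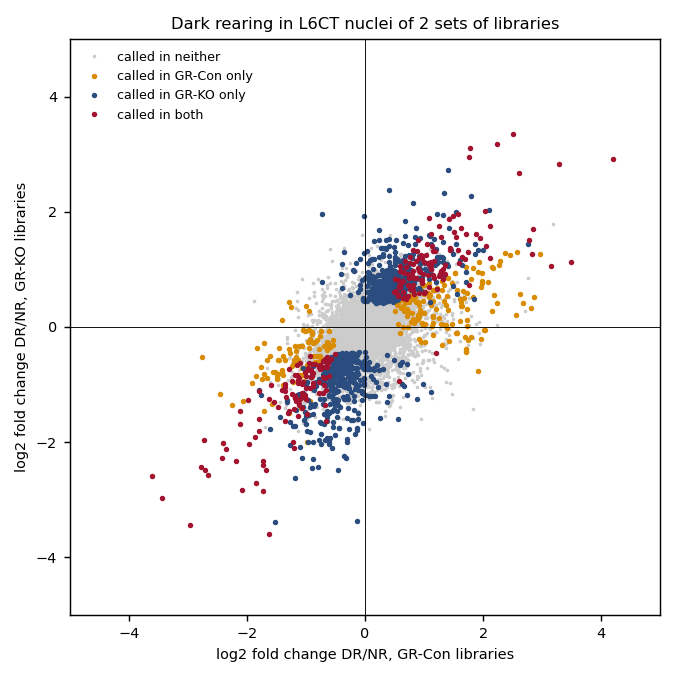
Log2 fold change of DR against NR in the 4 GR-Con libraries (horizontal axis) and in the 4 GR-KO libraries (vertical axis) for the genes tested in both, with the 227 genes called in both marked. Of these 227 genes, 225 lie in the quadrants of equal sign.

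The response to rearing was then set against that of other deep excitatory types of the same animals, L6IT, L6b and layer 5 intratelencephalic (L5IT) neurons, with the library as a block and a term for the difference between types. Against L6IT the difference was called for 536 of 17071 genes (3.14%), 296 of them higher in L6CT (1.73%) and 240 lower (1.41%), and by the quasi-likelihood test for 91 higher (0.533%) and 77 lower (0.451%). It was called for 215 of 16158 (1.33%) against L6b, 77 by the quasi-likelihood test, and for 243 of 16656 (1.46%) against L5IT, 1 by that test. Of the 2085 genes called in L6CT, 632 (30.3%) were also called in L6IT, where they made up 60.7% of its 1041 calls (6.52% of genes tested, 3.27% higher and 3.26% lower). Both types come from the same animals. L5IT shared 379 genes, 18.2% of the L6CT and 58.1% of the 652 L5IT calls (4.53%). L6b had 53 calls (0.455%), of which 39 were shared, from sums of 1159 nuclei in all. The sums held 12197 nuclei for L6CT, 6776 for L6IT and 3483 for L5IT, so the counts of calls do not rank the types by response. By quasi-likelihood 527 genes were called in L6IT, 169 in L5IT and 0 in L6b, where 1064 had an unadjusted p under 0.05. A call in 1 type and none in another is no difference between them, so the genes below are those whose difference was itself tested.

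Kit rose in L6CT and not in L6IT, where it had a log2 fold change of -0.26 and lay between 3.41 and 5.37 CPM in NR and 2.47 and 4.16 CPM in DR libraries. The difference was 1.66 on the log2 scale (SE 0.21, adjusted p = 4.8e-11). Sema5b rose more in L6CT than in L6IT, by 1.52 (SE 0.26, adjusted p = 1.7e-06), and more than in L6b, by 1.72 (SE 0.32, adjusted p = 3.8e-05). Inpp4b rose more than in L6b, by 2.15 (SE 0.31, adjusted p = 8.9e-09), and than in L5IT, by 1.77 (SE 0.24, adjusted p = 2.1e-09). Both differences of Inpp4b were called by the likelihood ratio test, and the second was not called by the quasi-likelihood test (adjusted p = 0.093). Inpp4b was far more abundant in L6b than in L6CT, at 1721 to 2120 CPM in NR and 1991 to 2209 CPM in DR libraries. Sema5b was at 137 to 239 CPM in L6b. Ltbp1 fell in L6CT and had a log2 fold change of 0.27 in L6b (difference -1.87, SE 0.30, adjusted p = 1.2e-06), where it was at 1.88 to 25.7 CPM in NR libraries. Hcrtr2 fell in L6CT and had a log2 fold change of 0.72 in L6b (difference -1.61, SE 0.26, adjusted p = 1.7e-06). Sv2c rose in L6CT and had a log2 fold change of -0.44 in L6b, a difference of 1.63 (SE 0.15, adjusted p = 3.1e-24). It was at 56.9 CPM or more in every L6b sum and at 13.9 CPM or less in every L6CT sum.

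Of 94 genes of the lists that were called in L6CT, and so chosen by that response, the difference from L6IT was called for 27, from L6b for 22 of 93 and from L5IT for 15, and by the quasi-likelihood test for 16, 10 and 0. Among all genes called in L6CT the likelihood ratio test called the difference for 13.2, 8.305 and 7.62%. Gabra2 fell more in L6CT than in L6IT, where its log2 fold change was -0.29 (difference -0.55, SE 0.11, adjusted p = 0.00012), and than in L6b (difference -0.70, SE 0.16, adjusted p = 0.0023). Kcnj3 fell more than in L6IT by -0.33 (SE 0.08, adjusted p = 0.0051) and than in L6b by -0.62 (SE 0.11, adjusted p = 6.4e-06). Rph3a, a vesicle-associated effector of Rab3, rose in L6CT (0.48, SE 0.15, adjusted p = 0.018) against a log2 fold change of -0.43 in L6IT (difference 0.91, SE 0.12, adjusted p = 1.8e-10). For Cacna1h the difference from L6IT was not called (0.08, SE 0.14), nor that from L5IT (0.76, SE 0.27, adjusted p = 0.15), while that from L6b was (1.04, SE 0.26, adjusted p = 0.012). For Scn1a the difference was called against L5IT (-0.44, SE 0.11, adjusted p = 0.0097) and not against L6IT (-0.01, SE 0.10) or L6b (-0.31, SE 0.12). The quasi-likelihood test made neither of these calls (adjusted p = 0.076 and 0.095), nor that of Gabra2 against L6b (adjusted p = 0.051). The difference of Ntsr1 was not called against any of the 3 types.

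The second question was whether L6CT neurons differed between animals with and without Cre in astrocytes. In normal light the likelihood ratio test called 20 of 16205 genes (0.123%), with 19 above GR-Con in GR-KO (0.117%) and 1 below (0.00617%). The quasi-likelihood test called 0, with 530 genes at an unadjusted p under 0.05, DESeq2 called 13, and with sex as a term the likelihood ratio test called 107. Median UMIs per nucleus were 17194 and 15911.5 in the NR GR-Con and 21977 and 31282 in the NR GR-KO libraries. In the dark the order was reversed, with 18152 and 19412 in GR-Con and 15406 and 15198 in GR-KO libraries. Sums thinned to equal totals do not equalize depth per nucleus, and its part in the genotype differences was not tested. Gpc6, a glypican, was at 12.8 and 10.4 CPM in GR-Con and at 28.5 and 27.0 CPM in GR-KO libraries (male and female of each, 1.246, SE 0.17, adjusted p = 4.4e-09). Lingo2, a leucine-rich repeat membrane protein, was at 51.9 and 51.1 CPM in GR-Con and at 96.4 and 99.3 CPM in GR-KO (0.91, SE 0.14, adjusted p = 2.2e-07). Erbb4, the neuregulin receptor, was at 15.0 and 12.4 CPM in GR-Con and at 28.6 and 28.8 CPM in GR-KO libraries. The adhesion molecule Sdk1 (1.08, SE 0.16, adjusted p = 1e-07), the secreted protein Tafa1 (1.06, SE 0.18, adjusted p = 1.1e-05), the ephrin receptor Epha6 (0.85, SE 0.16, adjusted p = 0.00011) and the Wnt inhibitor Trabd2b (0.80, SE 0.16, adjusted p = 0.0015) were also higher.

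Most of these genes are strongly expressed in other cells. In GR-Con libraries, 18 of the 19 genes were at least 4-fold higher in another type than in L6CT, as were 36.8% of all genes tested, and the median ratio of that type to L6CT was 95.5 against 2.85 over all genes. Erbb4 was at 14230.0 CPM in Pvalb interneurons and Lingo2 at 5563 CPM in L2/3 neurons. In oligodendrocytes, 9 of the 19 genes were higher in both NR GR-KO than in both NR GR-Con libraries, as were 24.1% of all genes. The sum of 7 inhibitory neuron markers in L6CT nuclei was 90.3 and 40.7 CPM in the NR GR-Con libraries and 98.6 and 70.01 CPM in the NR GR-KO libraries. Erbb4 is 1 of the 7, so the sum contains the difference of a called gene. Dlx1, another of the 7, was under 1 CPM in all 8 libraries. In the dark, the GR-Con female held 101 CPM of Lingo2 and 32.0 CPM of Gpc6, above both NR GR-KO animals, and 25.6 CPM of Erbb4, between the NR GR-Con and the NR GR-KO animals. That female was the deepest of the DR libraries, with a median of 19412 UMIs per nucleus. The part of other cells' RNA in these differences was not tested.

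In the dark 129 of 15940 genes (0.809%) were called between GR-KO and GR-Con, 90 higher (0.565%) and 39 lower (0.245%). By quasi-likelihood 0 were called, with 1276 genes at an unadjusted p under 0.05, and DESeq2 called 94. Arhgap31, which encodes a GTPase-activating protein, was at 9.92 and 17.3 CPM in GR-Con and at 42.8 and 51.4 CPM in GR-KO libraries (1.80, SE 0.30, adjusted p = 3.4e-06). Cbfa2t3, a transcriptional corepressor, was at 25.0 and 31.6 CPM in GR-Con and at 64.4 and 64.9 CPM in GR-KO (1.20, SE 0.18, adjusted p = 1.7e-07). Among NR libraries Arhgap31 ranged from 18.0 to 36.1 CPM and Cbfa2t3 from 14.7 to 39.8 CPM. Homer1, a scaffold of the postsynaptic density, was at 288 and 307 CPM and 516 and 687 CPM (1.02, SE 0.23, adjusted p = 0.0026), but among NR libraries it ranged from 191 to 792 CPM. Pcsk1, a prohormone convertase, was at 19.5 and 19.6 CPM and 36.7 and 44.2 CPM (1.06, SE 0.19, adjusted p = 3.7e-05). Il6ra, Sntb2, Igfbp4, Hrh1, Ephb2, Sept9, Tbc1d1 and Mbp were the other genes named by size, with log2 fold changes from 0.86 (Tbc1d1) to 1.21 (Il6ra). Mbp, a myelin gene, was at 35.1 and 35.8 CPM in GR-Con and 70.9 and 71.1 CPM in GR-KO. The summed oligodendrocyte markers were 52.5 and 55.8 CPM against 95.5 and 94.6 CPM in the same libraries. That sum includes Mbp and is mostly Mbp there, so it is no separate measure beside it. The markers other than Mbp were not compared on their own. The part of oligodendrocyte RNA in the other differences was not tested.

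Among genes lower in dark-reared GR-KO animals, Etv1, an ETS transcription factor, was at 43.4 and 48.2 CPM in GR-Con and at 10.7 and 17.8 CPM in GR-KO libraries (-1.67, SE 0.29, adjusted p = 2.1e-05). Etv1 also marks other types, with a mean of 603 CPM in L5NP and 274 CPM in L5IT against 38.5 CPM in L6CT neurons. The part of other cells' RNA in its difference was not tested. The cadherin Cdh6 was at 78.7 and 74.5 CPM and 32.4 and 41.7 CPM (-1.04, SE 0.21, adjusted p = 0.00064), and the ephrin Efnb2 was at 43.2 and 43.6 CPM and 26.5 and 21.2 CPM (-0.86, SE 0.18, adjusted p = 0.00073). Cpa6, B230208B08Rik, Jcad, Mgst3, Fbxo32 and Adamts16 were lower too, with log2 fold changes from -1.32 (Cpa6) to -0.72 (Adamts16). Of 14 immediate early transcription factors, 4 were called higher in GR-KO (0.565% among all genes), namely Fos, Fosb, Junb and Egr4, and 0 by the quasi-likelihood test. Without the DR GR-KO male or the DR GR-KO female 0 of the list were called, and without the DR GR-Con male 9. Fos was at 0.529 and 0.963 CPM in GR-Con and 2.15 and 2.81 CPM in GR-KO (1.74, SE 0.40, adjusted p = 0.0047), and Junb at 10.4 and 9.16 CPM and 16.5 and 19.7 CPM (0.89, SE 0.22, adjusted p = 0.0093). The median of the 14 genes was 0.89 against -0.008 over all genes. In normal light 0 of the 13 tested were called, with a median of 1.16, and the NR GR-KO male was the library that stood apart. Over both rearing conditions 0 of 14 were called, with a median of 1.0.

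The genotype calls did not recur between rearing conditions, whose libraries are separate. Depth per nucleus was higher in GR-KO in normal light and lower in GR-KO in the dark, and its part in this was not tested. Of the 20 calls in normal light, 18 were tested in the dark, 5 (27.8%) had the same sign and 0 were called. Of the 129 calls in the dark, 124 were tested in normal light, 88 (71.0%) had the same sign and 0 were called, against 56.6% of 15661 genes tested in both. With all 8 libraries and rearing as a covariate, 4 of 16730 genes (0.0239%) were called, all higher in GR-KO, among them Gm43581, Rerg and 1700016P03Rik. The quasi-likelihood test called 0, with 1111 genes at an unadjusted p under 0.05, and DESeq2 also called 0. Without the NR GR-KO male or the DR GR-KO female the likelihood ratio test called 0 as well, and without the NR GR-KO female 288. Gap43, Epha3 and Robo1 were not called in any genotype comparison, and Nr3c1 was not called in any comparison.

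The difference between the genotype effects of the 2 rearing conditions was called for 9 genes (0.0538%), 6 with the higher effect in normal light (0.0359%) and 3 with the higher effect in the dark (0.0179%). By quasi-likelihood 0 were called, with 741 genes at an unadjusted p under 0.05, and DESeq2 called 8. Leaving out the NR GR-Con female left 1 call, and there were 4 without the NR GR-Con male, 29 and 33 without the NR GR-KO female and male, 65 without the DR GR-Con female, 227 without the DR GR-Con male and 28 with sex as a term. Rspo2, a secreted agonist of Wnt signalling, was at 15.2 and 14.3 CPM in NR GR-Con and 16.3 and 18.9 CPM in NR GR-KO, but at 21.5 and 22.5 CPM in DR GR-Con and 10.3 and 8.03 CPM in DR GR-KO (1.50, SE 0.23, adjusted p = 1.3e-06 for NR minus DR). Pfkfb4, a regulator of glycolysis, was at 18.8 and 19.0 CPM and 16.6 and 16.8 CPM in NR and at 17.2 and 19.2 CPM and 31.1 and 26.8 CPM in DR (-0.87, SE 0.19, adjusted p = 0.021). Gpc6, called higher in GR-KO in normal light, was in the dark at 21.8 and 32.0 CPM in GR-Con and 19.2 and 20.7 CPM in GR-KO (1.66, SE 0.29, adjusted p = 5.7e-05). Genotype counts without 1 library ranged from 10 without the NR GR-Con female to 287 without the NR GR-KO female in normal light (11 without the NR GR-Con male and 34 without the NR GR-KO male), and in the dark from 18 without the DR GR-KO male and 19 without the DR GR-KO female to 636 without the DR GR-Con female and 854 without the DR GR-Con male.

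**Figure D5:**
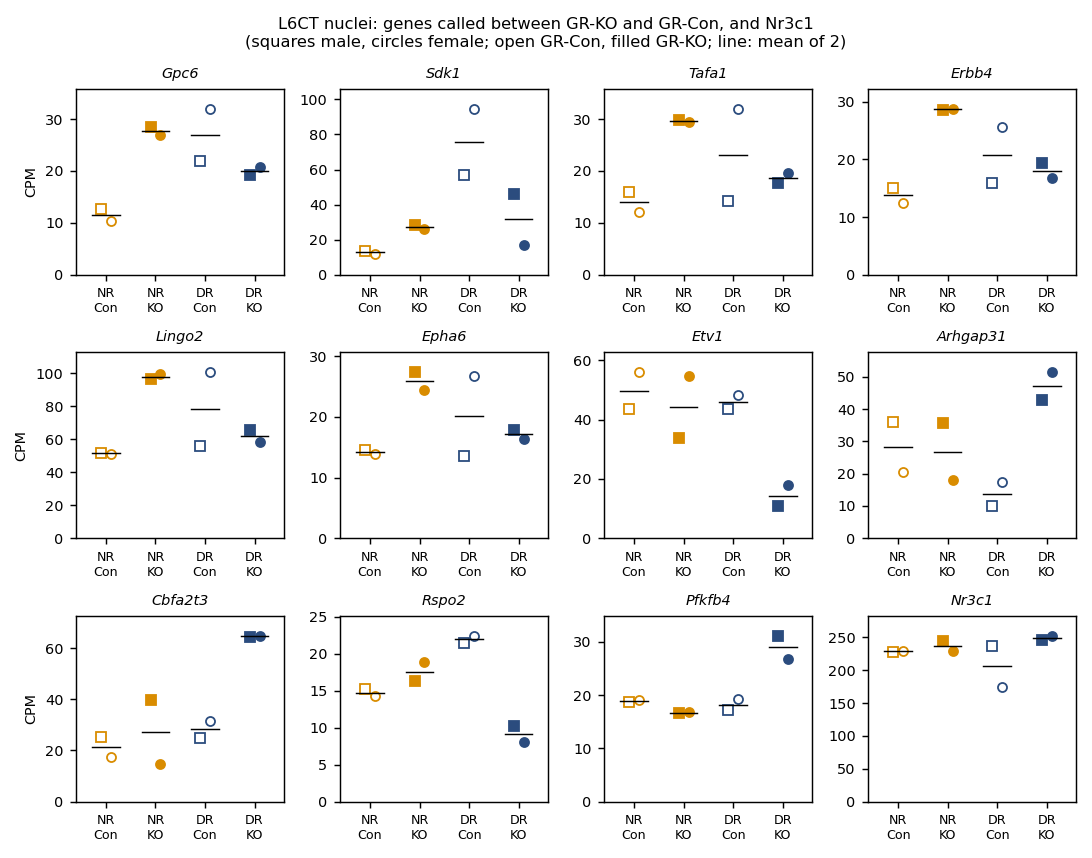
CPM of 12 genes in the L6CT sums of the 8 libraries by group, with squares for males, circles for females, open symbols for GR-Con, filled symbols for GR-KO and a line at the mean of 2. Lingo2, Erbb4 and Gpc6 separate GR-Con from GR-KO in normal light, and the DR GR-Con female reaches 100.6 CPM of Lingo2. Arhgap31, Etv1 and Rspo2 separate them in the dark, and Nr3c1 lies between 175 and 252 CPM in every library. Such separation was required of genes named by size. In normal light GR-KO stood wholly above GR-Con for 17.3% of all genes and below for 13.3%, and in the dark for 18.2% and 18.6%.

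Reads of the vector were sought in L6CT nuclei. Cre was detected in 32 of 5449 L6CT nuclei of the GR-KO libraries (0.587%, exact Clopper-Pearson 95% interval 0.402 to 0.828%), of which 24 were in the NR GR-KO male, and in 0 of 6748 nuclei of the GR-Con libraries, which by a limit of 3 counts allows a share of up to 0.0445% of nuclei with a UMI. GR-Con animals received no Cre, so a count of 0 there does not show where the vector was active. The vector given did not fix the assignment of reads, since 18 L6CT nuclei of GR-KO libraries held transcripts assigned to ΔCre. EGFP, which both vectors carry, was detected in 9 of the 5449 L6CT nuclei of GR-KO (0.165%) and 2 of the 6748 of GR-Con libraries (0.0296%), and in 8.25% and 6.40% of astrocytes. In the same GR-KO libraries Cre was detected in 6 of 4001 oligodendrocytes and their precursors (0.15%) and in 200 of 4362 astrocytes (4.59%). Median depth was 18864 UMIs in L6CT nuclei, 8175 UMIs in oligodendrocytes and precursors and 6394 UMIs in astrocytes. The intervals cover counting error only, and the source of these UMIs was not tested.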

How the data were processed

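Nuclei of P21 V1 were sorted by DRAQ5 signal and sequenced with the 10x Genomics 3′ kit in 8 libraries. The authors aligned the reads to mm10 with vector sequences added and counted them with Cell Ranger 8.0.1, removed doublets with DoubletFinder, filtered nuclei by their counts and named cell types in Seurat 5.3.0. They deposited raw UMI counts of 26711 features in 102330 nuclei and a table with the cell type, library, genotype and rearing of each nucleus. The deposited percent of mitochondrial UMIs had a median of 0.00734 to 0.0140% over L6CT nuclei of a library. The methods state that GFP-negative nuclei were collected for snRNA-seq, whereas the sample descriptions name DRAQ5 only. The vectors of this experiment carried eGFP-CAAX, a membrane form of EGFP, and whether such a gate removed nuclei of transduced cells was not tested.

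Counts of L6CT nuclei were summed per library, the unit of replication, with 20458973 to 36358101 UMIs in each sum. Genes were filtered with filterByExpr, scaled by TMM and tested with edgeR 4.0.16 in R 4.3.3 by the two-sided likelihood ratio test that the study names, with Benjamini-Hochberg adjustment over all genes tested and a threshold of 0.05. The SE was obtained by dividing the log2 fold change by the root of the likelihood ratio. Genotype or rearing was a covariate in the comparisons over 8 libraries, and differences between cell types were fitted with the library as a block. The quasi-likelihood F-test, DESeq2 1.42.0, other size factors, no filter, sex as a term, sums thinned to equal totals, joint fits of all 8 libraries and the omission of each library were the alternatives. The joint quasi-likelihood fit was added after the data were seen. Scripts were tested on simulated data, where the likelihood ratio test, DESeq2 and the quasi-likelihood test all made more false calls than the threshold allows in each comparison simulated, the quasi-likelihood test the fewest by share and the likelihood ratio test the most. The p-values measure the spread between 2 animals per group.

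Named genes were, in each comparison, up to 12 per direction (up to 4 in the differences between types) that had passed the threshold, averaged 4 or more in log2 CPM and changed most, with no overlap between the groups' libraries, sex-linked and vector genes left out. For the interaction and the cell type differences no such rule on overlap applied. Called members of 16 gene lists and a few defining genes were added. The members and lists were chosen with earlier results of these data known. A few genes that met these rules are not reported here, in the text or the plots, though counts include them. Genes under that level are named only as list members or where few were called. Promoters came from RefSeq (GRCm38.p6), with an entry for 71.9% of the genes tested, and gene positions from GENCODE vM21.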

Additional observations from a re-analysis of the deposited data

Results flagged for a closer look

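The genotype difference of 9 genes changed between normal light and darkness by the interaction term of the likelihood ratio test in edgeR, given as the log2 difference in NR minus that in DR. Gpc6 had 1.66, Rspo2 1.50, Grin3a 1.31, Ccdc3 1.68, Foxo1 1.96 and Gm20559 4.57, and Pfkfb4 had -0.87, Fgf5 -1.37 and Mest -1.07. Gm20559 was under 1 CPM in all 8 libraries. None of the 9 was called by the quasi-likelihood test.

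The response to darkness differed between L6CT and other deep excitatory neurons of the same animals for 536 genes against L6IT, 215 against L6b and 243 against L5IT. Against L6IT, Hunk, a kinase gene, had a log2 fold change of 0.07 in L6CT and of -1.34 in L6IT. Against L5IT, Adarb2 rose in L6CT (0.63) and fell in L5IT (-1.04).

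Cre, which lies outside the measurement of endogenous genes, was detected in 32 L6CT nuclei of the GR-KO libraries and in none of the 6748 of the GR-Con libraries. Transcripts assigned to ΔCre were detected in 18 L6CT nuclei of the GR-KO libraries, which received Cre, and in 0 of the GR-Con libraries. In astrocytes they were assigned in both genotypes, in 128 of 4362 nuclei of GR-KO (2.93%) and 104 of 5124 of GR-Con libraries (2.03%).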

How the results depend on the processing

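No paired analysis was possible because the library names in the deposited table carry the sex of the animal and not the replicate number, so the planned block on that number was not run. Each group held 1 male and 1 female, and sex as a term therefore blocked the animals by sex. With the quasi-likelihood test 0 genes remained past the threshold for darkness in GR-Con, 83 in GR-KO, 0 for genotype in NR, 0 in DR, 0 over both and 0 for the interaction, and 168, 77 and 1 for the differences from L6IT, L6b and L5IT. DESeq2 called 13 genes for genotype in NR and 0 over both rearing conditions. Sex as a term gave 107 for genotype in NR (20 without it) and 28 for the interaction (9 without it), thinning gave 10 for genotype over both, and the joint fit of 8 libraries gave 5 for genotype in NR. The joint quasi-likelihood fit, added after the data were seen, gave 28 and 204 for darkness in GR-Con and GR-KO and 0 and 0 for genotype in NR and DR. Leaving out 1 library gave 1113 to 2383 for darkness over both genotypes, 83 to 1711 in GR-Con, 186 to 1870 in GR-KO, 10 to 287 for genotype in NR, 18 to 854 in DR, 0 to 288 over both, 1 to 227 for the interaction, 305 to 730 against L6IT, 93 to 246 against L6b and 105 to 715 against L5IT, the extremes of the last set being the NR GR-Con male and the NR GR-KO male. Where an arm was left with 1 animal, that animal was taken to vary like the others. Of 1542 values of 128 named gene and comparison pairs under these alternatives, 1267 kept their direction and call, 275 kept their direction and lost the call, and 0 reversed. The quasi-likelihood test accounted for 85 of the lost calls and its joint fit for 69. The shares of L6CT nuclei stayed uncalled under each alternative run.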
